A study of Mus musculus with 201 samples.

Results

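The genes described are those of the proteasome and its helpers in mouse hippocampus. Members were all probe sets with 1 gene symbol that starts with Psma, Psmb, Psmc, Psmd, Psme or Psmg, except Psmb8 and Psmb9. This gave 96 of 45037 non-control probe sets and 46 of 18193 gene symbols. Of the genes, 8 encode alpha-ring and 9 beta-ring subunits of the 20S core, 6 the ATPases and 11 the non-ATPase subunits of the 19S cap, 7 assembly chaperones and 3 activators. Psmc3ip and Psme3ip1 match by symbol but encode neither subunits nor chaperones. No filter on low values was applied, so all 96 probe sets were tested, and 67 of them had a mean of at least 8 PDNN units. PDNN is the authors' probe-level summary. Its values behave like logarithms, of a base that no source used here gives. Differences are therefore given in PDNN units, without folds, and levels of different genes are not compared. Where a gene has several probe sets, they are ordered by mean value, as brighter or dimmer, only to choose among them.

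The study profiled hippocampal RNA of 100 mouse strains, with no treatment named, on 201 Affymetrix M430 2.0 arrays, to learn which transcripts differ with genotype. The BXD panel held 68 recombinant inbred strains from C57BL/6J and DBA/2J (134 arrays), some of the later lines being nearly rather than fully inbred, and the CXB panel held 13 from BALB/cByJ and C57BL/6ByJ (27 arrays). There were 13 classical inbred strains (129S1/SvImJ, A/J, AKR/J, BALB/cByJ, BALB/cJ, C3H/HeJ, C57BL/6ByJ, C57BL/6J, DBA/2J, KK/HIJ, LG/J, NOD/LtJ and NZO/HlLtJ, 27 arrays), 4 wild-derived strains (CAST/EiJ, PWD/PhJ, PWK/PhJ and WSB/EiJ, 7 arrays) and the F1 hybrids of C57BL/6J and DBA/2J in both directions, B6D2F1 and D2B6F1 (6 arrays). Each array was a pool of 1 to 4 mice of 1 sex, except BXD9 replicate 2, which held both and was left out of tests. Mean pool ages ran from 41 to 196 days. Dissections can include varying amounts of subiculum and fimbria, per the labels' protocols. Beyond 1 technical duplicate of B6D2F1 males, the labels do not say how the pools of a strain relate, so p-values measure the spread between pools. Only for wild-derived against classical strains, tested on 1 value per strain, do they measure the spread between strains. For 7 arrays the header of the file and the label named different facts, 4 of them the strain (BXD14 replicates 1 and 2, D2B6F1 replicate 1 and PWD/PhJ replicate 1). The labels were used, and the counts of members called are also given without these arrays. Of the hippocampal markers, the pan-neuronal Snap25 ran from 10.59 to 11.41 PDNN units over the strains and the pyramidal neuron marker Neurod6 from 9.97 to 10.70. The 4 granule neuron markers ran from 9.49 to 10.11 (Calb1), 8.49 to 9.69 (C1ql2), 7.97 to 8.58 (Prox1) and 7.51 to 9.17 (Dsp). The median over all probe sets was 7.87.

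The proteasome degrades proteins tagged with ubiquitin. Its barrel-shaped core is built of outer alpha rings, which gate the channel, and inner beta rings, which carry the proteolytic sites. The 19S cap binds ubiquitin, unfolds the substrate with its ATPase ring and feeds it into the core. In neurons this machinery turns over synaptic proteins, and the transcription factor Nfe2l1 raises subunit genes together through antioxidant response elements when proteasome activity falls.

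Promoter sequences were taken from RefSeq (GRCm38.p6), as the 250 bases before each gene's start, and 38 of the 46 genes were matched. Those of Psmb6, Psmd6 and Psmd9 are shown because each had a probe set called for a strain effect among the BXD strains. Psmd5 was called too, through 1 strain, and is not shown. Those of Psmc6 and Psmd12 are shown as examples from the most closely correlated pairs. The sequences read 5′ to 3′ towards the gene, and capitals mark matches to CCGGAAG (the ETS site), TGACNNNGC (the antioxidant response element) or CCAAT on either strand. Psma2 (paired with Psmc6) and Psma6 (paired with Psmd12) are not shown. Of the motifs marked, their promoters held CCAAT alone.
Psmb6 (chr11:70525107-70525356, plus strand): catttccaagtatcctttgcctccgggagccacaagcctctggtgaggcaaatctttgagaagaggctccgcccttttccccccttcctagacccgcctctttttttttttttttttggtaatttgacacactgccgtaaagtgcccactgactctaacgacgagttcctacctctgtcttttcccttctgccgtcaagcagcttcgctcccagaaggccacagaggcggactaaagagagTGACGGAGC
Psmd6 (chr14:14120946-14121195, minus strand): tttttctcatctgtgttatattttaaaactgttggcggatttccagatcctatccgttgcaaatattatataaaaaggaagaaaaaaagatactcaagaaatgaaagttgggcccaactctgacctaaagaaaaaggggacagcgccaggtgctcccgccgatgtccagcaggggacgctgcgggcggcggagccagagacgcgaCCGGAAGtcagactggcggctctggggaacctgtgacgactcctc
Psmd9 (chr5:123227940-123228189, plus strand): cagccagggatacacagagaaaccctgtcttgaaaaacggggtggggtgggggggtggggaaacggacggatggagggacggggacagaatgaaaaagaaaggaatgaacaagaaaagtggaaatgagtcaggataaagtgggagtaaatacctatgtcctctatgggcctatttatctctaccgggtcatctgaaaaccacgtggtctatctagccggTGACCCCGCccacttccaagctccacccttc
Psmc6 (chr14:45329574-45329823, plus strand): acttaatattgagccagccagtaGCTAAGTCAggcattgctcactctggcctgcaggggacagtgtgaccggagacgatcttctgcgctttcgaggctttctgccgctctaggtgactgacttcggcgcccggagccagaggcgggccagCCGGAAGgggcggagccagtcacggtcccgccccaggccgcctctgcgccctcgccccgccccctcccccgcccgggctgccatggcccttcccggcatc
Psmd12 (chr11:107479278-107479527, plus strand): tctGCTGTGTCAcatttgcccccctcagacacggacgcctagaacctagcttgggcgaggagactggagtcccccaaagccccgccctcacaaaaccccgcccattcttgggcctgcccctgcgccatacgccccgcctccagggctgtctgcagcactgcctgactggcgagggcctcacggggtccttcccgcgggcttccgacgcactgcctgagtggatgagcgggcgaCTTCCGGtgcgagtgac

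The ETS letters occurred in 12 of the 38 promoters (31.6%), against 7.05% of 27025 RefSeq promoters and 13.7% of the 8123 whose genes had a mean of at least 8 PDNN units. Psmd6 holds them 45 bases before the start, Psmc6 100 and Psmd12 17. The antioxidant response element occurred in 5 promoters (13.2%, against 10.1% and 11.6%), those of Psmb5, Psmb6, Psmc6, Psmd9 and Psmd12. CCAAT occurred in 14 (36.8%, against 34.5% and 35.8%), and the TATA box TATAAA, left in lower case, in 3 (7.89%, against 13.0% and 5.91%). These are matches of letters and not measured binding. In the 5 sequences printed, no matches of different motifs overlapped.

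Among the BXD strains, the core subunit Psmb6 fell, by its only probe set, into a low and a high set of strains. The cap subunit Psmd6 did so by 1 of its 2 probe sets, and most other members had no called strain effect. Psmb6 encodes the beta-ring subunit with caspase-like activity, and Psmd6 a non-ATPase subunit of the cap. The strain effect passed for 4 of 96 member probe sets (4.17%), against 6.95% of all probe sets, by limma's moderated F-test with Benjamini-Hochberg adjustment over all of them. The count was 4 as well without the arrays with disagreeing headers. With the spread estimated from the panel's own arrays alone, 9 members passed (9.38%), against 8.38% of all, so the count rose and the members' share no longer lay below that of all. The median SD of BXD strain values was 0.0770 PDNN units over the members and 0.0600 over all probe sets. The median residual SD, the spread left after strain, sex and batch, was 0.108 over the members and 0.0782 over all. Outside the called probe sets, the SD ran from 0.0284 (Psmd2 1443477_at, of the cap) to 0.134 (Psme3 1418078_at, of an activator). The median intraclass correlation, the share of variance between strains, was -0.06 over the members and -0.02 over all.

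**Figure D1:**
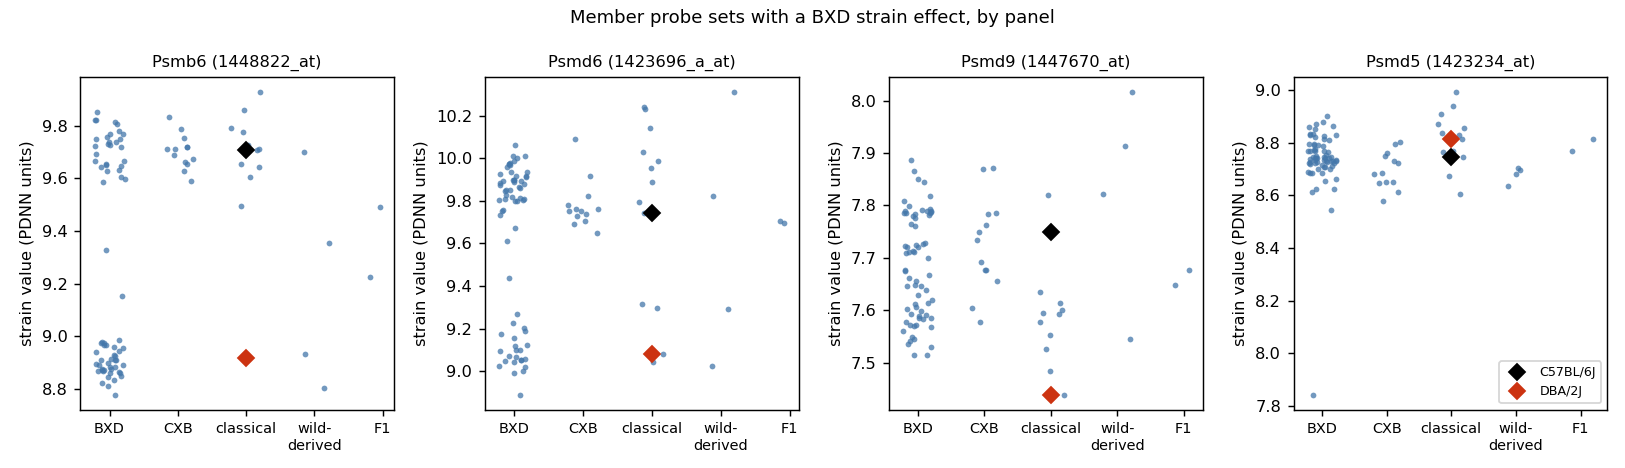
PDNN values (y axis) of the member probe sets called for a strain effect, by panel of strains, with 1 point per strain and diamonds for C57BL/6J (black) and DBA/2J (red). Psmb6 and Psmd6 separate into low and high strains among the BXD, C57BL/6J being high and DBA/2J low for both, while for Psmd5 the strain BXD63 lies alone at 7.84.

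For Psmb6 (probe set 1448822_at), the C57BL/6J arrays read 9.61, 9.89 and 9.57 PDNN units and the DBA/2J arrays 9.08 and 8.79. In the BXD panel, 39 strains lay between 8.78 and 9.33 and 29 between 9.59 and 9.85, with no strain in the gap of 0.258. BXD21 (9.15) and BXD99 (9.33) stood above the rest of the low set, which ended at 8.98. The low strains averaged 8.92 ± 0.0936 (SD, n = 39) and the high strains 9.72 ± 0.0743 (SD, n = 29), so the sets lie at the levels of the parents. The intraclass correlation was 0.923 and the adjusted p 4.96e-37 by limma's F-test (SD of strain values 0.408, n = 68 strains). The F1 hybrids lay between the parents: the B6D2F1 arrays read 9.53, 9.53 and 9.24 and the D2B6F1 arrays 9.02, 9.27 and 9.34. The lowest of these is the array whose header names DBA/2J, and the others lay between the parents without it. All 13 CXB strains, neither of whose parents is DBA/2J, were high (9.59 to 9.83). Of the 13 classical strains DBA/2J alone was low, the others reading 9.49 to 9.93. Among the wild-derived strains PWK/PhJ (8.80) and PWD/PhJ (8.93) lay with the low set, CAST/EiJ at 9.36 and WSB/EiJ at 9.70. The PWD/PhJ array whose header names PWK/PhJ read 8.95 and the other 8.94.

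For Psmd6 (1423696_a_at), the C57BL/6J arrays read 9.72, 9.98 and 9.62 PDNN units and the DBA/2J arrays 9.24 and 9.05. Here 24 BXD strains lay between 8.89 and 9.44 (mean 9.10) and 44 between 9.61 and 10.06 (mean 9.88). The gap was 0.176 and the next widest 0.168, so the cut was less distinct than for Psmb6, whose next widest gap was 0.174. Next to it lay BXD21 (9.44) below and BXD14 (9.61), both of whose arrays have headers that name BXD23, above. The intraclass correlation was 0.878 and the adjusted p 2.16e-28 by limma's F-test (SD of strain values 0.384, n = 68 strains). Unlike for Psmb6, both F1 hybrids lay in the range of the high strains, at 9.71 (B6D2F1) and 9.69 (D2B6F1, whose arrays read 9.64 under the header DBA/2J and 9.84 and 9.67 otherwise), and 4 classical strains were low, namely KK/HIJ, DBA/2J, C3H/HeJ and 129S1/SvImJ (9.04 to 9.32). PWD/PhJ (9.02, arrays 9.11 under the header PWK/PhJ and 9.09) and PWK/PhJ (9.29) were low and CAST/EiJ (10.31) was the highest of all 100 strains. A second Psmd6 probe set, 1423697_at, did not pass (adjusted p 1.00), read 9.71 in C57BL/6J and 9.73 in DBA/2J, and correlated with the first at only r = 0.14 over 100 strains. So the split was a property of 1 of the gene's probe sets. Whether the probes of that probe set, or of the only Psmb6 probe set, cover sequence variants among the strains was not tested. The sets of low strains for both genes shared 14 of 68 strains, which is 14 of the 39 low for Psmb6 and 14 of the 24 low for Psmd6, and the correlation between both genes over the BXD was 0.07.

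Psmd5 and Psmd9 encode chaperones that help assemble the ATPase ring, and both also passed. Psmd5 (1423234_at) read 7.83 and 7.85 PDNN units on the arrays of BXD63, whose strain value was 7.84, while the other 67 BXD strains lay between 8.54 and 8.90. Its adjusted p was 5.38e-08 by limma's F-test, and 1.00 without the BXD63 arrays, so the call was that of 1 strain. Measured protein-coding genes up to 5 places from Psmd5 in RefSeq's order did not share the low value. BXD63 differed from the median of the other BXD by -0.05 (Phf19) to 0.12 (Fbxw2) for these, against -0.90 for Psmd5. Of them Cutal, Traf1 and Hc had medians of 7.76, 7.60 and 7.545 in the other BXD. These lie below the 7.84 of Psmd5 in BXD63, so these genes could hardly show such a fall. The gene next to Psmd5 on 1 side was not measured by a probe set with 1 symbol. Psmd9 (1447670_at) ran from 7.51 to 7.89 over the BXD (adjusted p 4.79e-07 by limma's F-test, intraclass correlation 0.559), though not by MAS5 values (adjusted p 0.195). Its other probe sets did not pass (adjusted p 0.190 and 0.988).

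The genes whose BXD strain values most resembled these were listed after values were seen. All 15 nearest to Psmb6 are on its own chromosome, led by Mis12 (r = 0.94) and Xaf1 (r = -0.92). Of the 15 nearest to Psmd6 13 are, led by Ptprg (r = 0.95) and Nkiras1 (r = 0.95), and of the 15 nearest to Psmd9 10 are, led by Mphosph9 (r = -0.86), each over 68 strains. Strain values of all genes come from the same arrays.

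In the CXB panel 1 of 96 member probe sets passed (1.04%), against 4.20% of all. It was again Psmd9 1447670_at, with an SD of 0.0905 PDNN units over 13 strains and an adjusted p of 0.0262 by limma's F-test. The call was lost without CXB1 (adjusted p 0.0960), CXB2 (0.131), CXB3 (0.0639) or CXB10 (0.0746), with MAS5 values (0.660) and with arrays of the panel alone (0.751, 0 members called), in limma fits. Without the arrays with disagreeing headers it held (0.0406). Psmb8, an interferon-induced beta subunit outside the member rule, passed in both panels (adjusted p 0.0313 in BXD and 3.47e-06 in CXB).

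Between the parents of the BXD panel, DBA/2J was lower than C57BL/6J by at least 1 probe set for Psmb6, Psmd6, Psmd9 and Psme3. It was higher by at least 1 probe set for Psmc2, Psmd13 and Psmd11. Called probe sets of Psmc2 (mean 7.85 PDNN units), Psmd13 (7.79) and Psmd9 (7.84 and 7.68) lay below 7.87, the median over all probe sets. In all, 10 of 96 member probe sets passed limma's test (10.4%), against 7.24% of all. Of these 4 were higher (4.17%, against 4.60% of all) and 6 lower (6.25%, against 2.64% of all). The median absolute difference was 0.0645 PDNN units over the members and 0.0635 over all probe sets. Without the arrays with disagreeing headers 9 members passed, and 4 passed without a batch term or with the spread of inbred strains and F1 hybrids alone. DBA/2J had 2 arrays, both of females, and C57BL/6J 3, of both sexes, so single arrays weigh heavily.

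**Figure D2:**
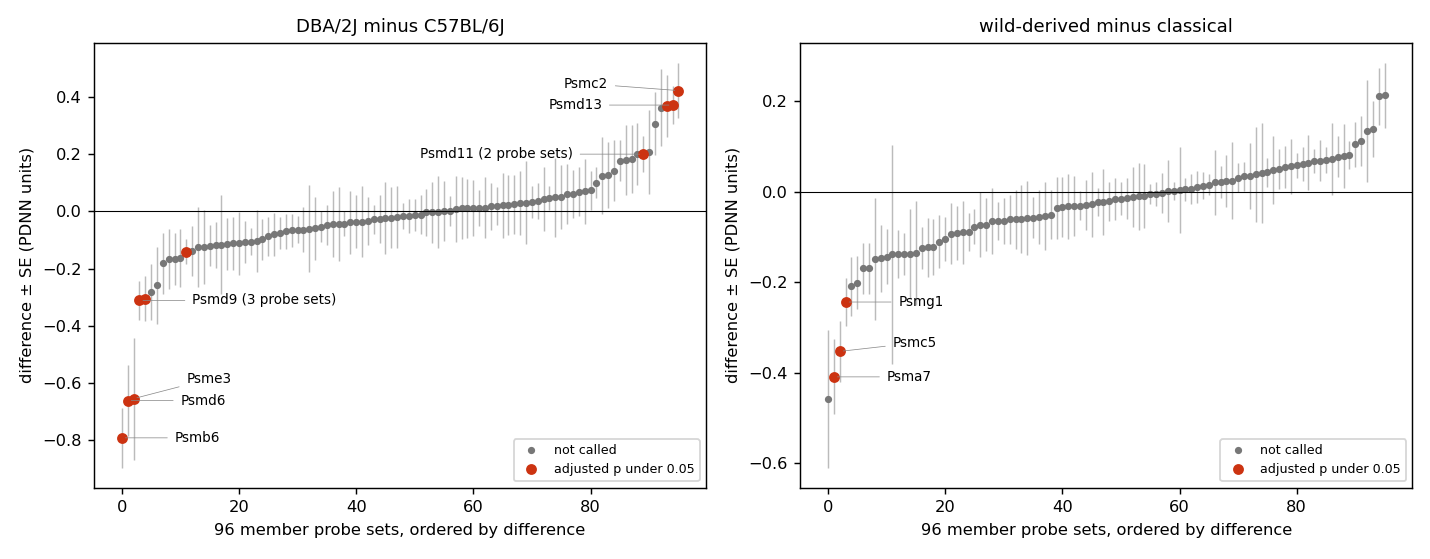
Differences in PDNN units of the 96 member probe sets, DBA/2J minus C57BL/6J and wild-derived minus classical strains, ordered by size, with bars for the SE and called probe sets in red. Psmb6 and Psmd6 stand lowest between the parents (-0.79 and -0.66), and in the other comparison the called probe sets of Psma7, Psmc5 and Psmg1 all lie below 0.

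Psmb6 differed by -0.79 ± 0.104 PDNN units (SE) and Psmd6 1423696_a_at by -0.66 ± 0.124 (adjusted p 9.65e-09 and 6.98e-05 by limma). Both differences followed from arrays whose groups do not overlap, as given above. The other Psmd6 probe set differed by 0.02 and did not pass. All 3 probe sets of Psmd9 were lower in DBA/2J. Psmd9 1447670_at read 7.73, 7.82 and 7.71 in C57BL/6J and 7.54 and 7.48 in DBA/2J, a difference of -0.31 ± 0.0685 (SE, adjusted p 8.77e-04 by limma). That call was lost with MAS5 values (adjusted p 0.291), without a batch term (0.0625) and with the spread of inbred strains and F1 hybrids alone (0.0677), in limma fits. The others differed by -0.30 ± 0.0780 (1423386_at, adjusted p 0.00526) and -0.14 ± 0.0428 (1423387_at, adjusted p 0.0247). The calls of these other Psmd9 probe sets were lost without DBA/2J replicate 1 (adjusted p 0.0650 and 0.155) or replicate 2 (0.0628 and 0.143), that of 1423386_at also without C57BL/6J replicate 2 (0.0563) and that of 1423387_at without replicate 3 (0.403), in limma fits.

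Psme3 encodes PA28-gamma, a nuclear activator that opens the core without ubiquitin. Its probe set 1418078_at read 8.41, 9.09 and 8.63 in C57BL/6J and 8.40 and 8.08 in DBA/2J, a difference of -0.65 ± 0.213 PDNN units (SE, adjusted p 0.0409 by limma). The lowest C57BL/6J array was almost level with the higher DBA/2J array. The call was lost without C57BL/6J replicate 2 (-0.44, adjusted p 0.310), DBA/2J replicate 1 (adjusted p 0.175) or 2 (0.214), and without the arrays with disagreeing headers (0.0506). The other Psme3 probe sets differed by -0.08 and -0.03 and did not pass.

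Psmc2, an ATPase of the cap, was higher in DBA/2J by its probe set 1443307_at, which read 7.72, 7.51 and 7.74 in C57BL/6J and 8.01 and 8.01 in DBA/2J. The difference was 0.42 ± 0.0967 PDNN units (SE, adjusted p 0.00144 by limma), and the 2 brighter Psmc2 probe sets differed by -0.04 and -0.16 and did not pass. The call was lost without C57BL/6J replicate 2 (adjusted p 0.0582) or DBA/2J replicate 1 (0.0633), in limma fits. Psmd13, a cap subunit, read 7.64, 7.58 and 7.67 in C57BL/6J and 7.91 and 7.94 in DBA/2J by 1445729_at, so the groups do not overlap. That difference was 0.37 ± 0.0674 (SE, adjusted p 3.92e-05 by limma), while its other probe sets differed by 0.01, -0.01 and -0.07 and did not pass. Psmd11, another cap subunit, was higher by 0.37 ± 0.107 (1437080_s_at, adjusted p 0.0169) and 0.20 ± 0.0617 (1456059_at, adjusted p 0.0269) of its 8 probe sets. The other 6 did not pass, 3 of them differing by 0.03 to 0.31 and 3 by -0.12 to -0.05. The call of 1456059_at was also lost after quantile normalization (adjusted p 0.153) and with MAS5 values (0.422). Without DBA/2J replicate 1 these fell to 0.12 and 0.02 (adjusted p 0.745 and 0.952), and without C57BL/6J replicate 2 both calls were lost (0.0663 and 0.203), as was that of 1437080_s_at without replicate 3 (0.0722). Batch 5, the only batch with both parents, held 1 array of each, of females for DBA/2J and of males for C57BL/6J. Between these, Psmb6 differed by -0.784, Psmd6 by -0.573, Psmc2 by 0.27 and Psmd13 by 0.275, while Psmd11 differed by 0.187 and -0.027. There Psme3 differed by -0.558 and the Psmd9 probe sets by -0.332, -0.228 and -0.225.

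The 4 wild-derived strains had lower values than the 13 classical strains for the alpha-ring subunit Psma7, the cap ATPase Psmc5 and the assembly chaperone Psmg1. These 3 of 96 member probe sets passed limma's test over strain values (3.13%), against 3.95% of all. Of the members 0 were higher, against 1.95% of all, and 3 were lower (3.13%), against 2.00% of all, while 21 had an unadjusted p under 0.05 in limma's test, as had 12129 of all. Psmb6 differed by -0.46 ± 0.152 PDNN units (SE) and did not pass (adjusted p 0.0850 by limma). The median difference was -0.02 PDNN units over the members and 0.02 over all probe sets. In simulated data, whose unchanged probe sets carried only array noise, 8.18% of this comparison's calls were false, above the intended 5%. A fit that weights strains by their precision, chosen after seeing the data, had 4.60% there. In the real data it kept the 3 calls (adjusted p 0.0172 to 0.0228 by limma). Real strains of a group also differ from each other, so the simulated rates cannot say how many calls are false here.

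For Psma7 (1423567_a_at) the strain values were 9.17 in CAST/EiJ, 8.86 in PWD/PhJ, 9.12 in PWK/PhJ and 9.38 in WSB/EiJ. The classical strains ran from 9.29 to 9.71 with a median of 9.56, so 3 of them lay below WSB/EiJ. The means were 9.13 and 9.54, a difference of -0.41 ± 0.0827 PDNN units (SE, adjusted p 0.0135 by limma), but the other Psma7 probe set differed by -0.06 (adjusted p 0.435). Psmc5 (1415740_at) read 9.33 in CAST/EiJ, 9.34 in PWD/PhJ, 9.13 in PWK/PhJ and 9.65 in WSB/EiJ, against 9.55 to 9.89 in the classical strains. The difference was -0.35 ± 0.0671 (SE, adjusted p 0.0104 by limma), again with WSB/EiJ within the classical range. Psmg1, which helps assemble the alpha ring, had means of 8.27 and 8.52, a difference of -0.24 ± 0.0537 (SE, adjusted p 0.0202 by limma). Its wild-derived strains ran from 8.12 to 8.45 and its classical strains from 8.38 to 8.65, 3 of them below the highest wild-derived strain. All 3 calls were lost without PWD/PhJ (Psma7 0.0909, Psmc5 0.0558, Psmg1 0.134, adjusted p by limma), 1 of whose 2 arrays has a header that names PWK/PhJ (Psma7 read 8.82 on that array and 8.91 on the other), and with RMA or MAS5 values. The calls of Psma7 (adjusted p 0.0673) and Psmg1 (0.0713) were also lost without outlier arrays, and all 3 held without the arrays with disagreeing headers (0.00960 to 0.0220), in limma fits. The outlier arrays included the only CAST/EiJ array, PWD/PhJ replicate 1 and PWK/PhJ replicate 2, beside several of classical strains. PWK/PhJ replicate 2 had the lowest Psmc5 value (8.93) and the highest 3′ to 5′ ratio of ACTB signal (4.65, median 1.34) of all arrays. Whether array quality bears on these differences was not tested. Within batches 5, 6 and 7 the differences were -0.458, -0.236 and -0.594 for Psma7 and -0.342, -0.319 and -0.428 for Psmc5. These batches held only 4, 2 and 1 wild-derived arrays. The 1 in batch 7 was PWD/PhJ replicate 1, the outlier array whose header names PWK/PhJ.

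No member passed the test for sex or for age. For sex, 0 of 96 probe sets passed limma's test, against 0.115% of all, and 3 had an unadjusted p under 0.05, from Psma1, Psmd11 and Psmd9, as had 1788 of all. For the slope with pool age, 0 passed, against 0.00222% of all, and 5 had an unadjusted p under 0.05, from Psma1, Psma4, Psmd11, Psmd13 and Psmg4, as had 1141 of all.

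Of 37 other genes of the ubiquitin-proteasome pathway that were listed, 25 were measured by a probe set with 1 symbol. In limma's tests 1 passed across the BXD (Psmb8, against 6.95% of all probe sets) and 3 across the CXB (Psmb8, Rad23b and Uba6, against 4.20% of all). Between the parents 4 passed, against 7.24% of all. Of these Ube3a, a ubiquitin ligase, and Uba6, a ubiquitin-activating enzyme, were higher in DBA/2J, by 0.53 ± 0.132 and 0.50 ± 0.120 PDNN units (SE). Rad23b and Ubqln4, which shuttle tagged proteins to the cap, were lower, differing by -0.49 ± 0.127 and -0.27 ± 0.0774. None of the 25 passed for wild-derived strains, sex or age, and Nfe2l1 passed in no comparison (BXD adjusted p 0.389 by limma).

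Beyond these few genes, most subunits were positively correlated from strain to strain in PDNN values, though less so under other processing. With 1 probe set per gene, the median Pearson correlation over the 1035 pairs of 46 genes was 0.39 across 100 strains, and 891 pairs (86.1%) were above 0. That median was 0.19 with MAS5 values, 0.21 with RMA values and 0.20 after quantile normalization. Over all 18193 genes the median was -0.0027. Among genes with a mean of at least 8 PDNN units it was 0.42 for 44 members and 0.10 for 10008 genes. It was 0.42 in the BXD, 0.55 in the CXB and 0.35 in the 19 other strains, and within the 7 batches, over arrays, 0.284 to 0.518. All points share arrays, and these values are descriptions.

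**Figure D3:**
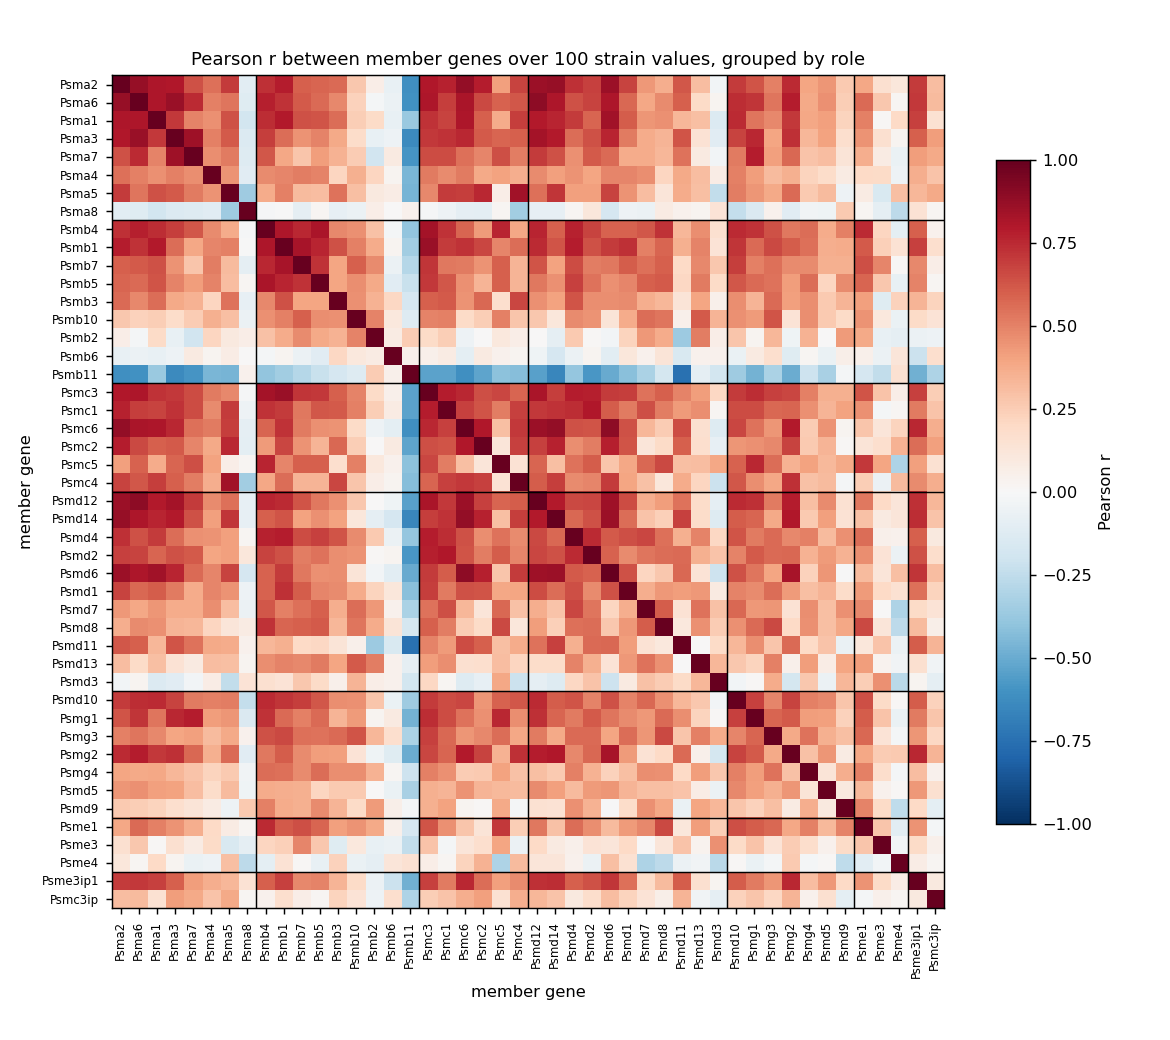
Pearson correlations across 100 strains between the member genes, ordered by role, with colour for r. Among PDNN values the ATPases have the highest median r among themselves (0.67), and Psmb11 is mostly below 0.

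Of the roles, the cap ATPases had the highest median r in PDNN values, 0.67 among themselves, with 0.62 to the alpha ring and 0.54 to the cap's non-ATPases. The medians were 0.53 within the alpha ring, 0.43 within the cap's non-ATPases, 0.41 within the chaperones, 0.37 within the beta ring and -0.03 within the 3 activators. After quantile normalization the order changed: the beta ring had 0.40, the chaperones 0.34, the ATPases 0.28, the alpha ring 0.24, the non-ATPases 0.17 and the activators -0.12. Psmc3 (0.65), Psma2 (0.62) and Psmb4 (0.59) had the highest median r to the other members. Psmb11, known as the thymus subunit (-0.38, above 0 with 4 of 45 others), Psma8, known as the testis subunit (-0.05), and Psme4 (0.02) had the lowest. Psmb11 and Psma8 were the only member genes with a mean below 8 PDNN units (7.58 and 7.49). Both lay under the median of 7.87 over all probe sets. Psmb6, which split into low and high strains, was near 0 (0.03). The closest pairs were Psmc6 with Psmd6 1423697_at (0.89), Psma6 with Psmd12 (0.89) and Psma2 with Psmc6 (0.88), and the most opposed were Psmb11 and Psmd11 (-0.75). Probe sets of a gene did not always follow each other: of 25 genes with more than 1, the 2 brightest had r below 0 for Psmc1 (-0.39), Psmd2 (-0.14), Psmd7 (-0.09) and Psma1 (-0.04), and a median of 0.45 over all 25.

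The mean of the 34 core and cap genes ran from 9.30 PDNN units in CXB8 to 9.69 in AKR/J, with a median of 9.46. The panels overlapped widely, with medians of 9.42 in the wild-derived, 9.44 in the CXB, 9.48 in the classical inbred strains and 9.49 over the 2 F1 hybrids. The same mean over standardized strain values moved with the spread of each array: across 100 strains its r with the SD of all PDNN values on the arrays was 0.68 (0.64 without BXD9 and CXB8), and within the 7 batches it was 0.660 to 0.946. After quantile normalization, which gives all arrays 1 distribution, that r was 0.15 and the median pairwise r of the members 0.20, against 0.0061 for all genes. How much of the shared variation comes from the arrays' spread was not tested further.

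**Figure D4:**
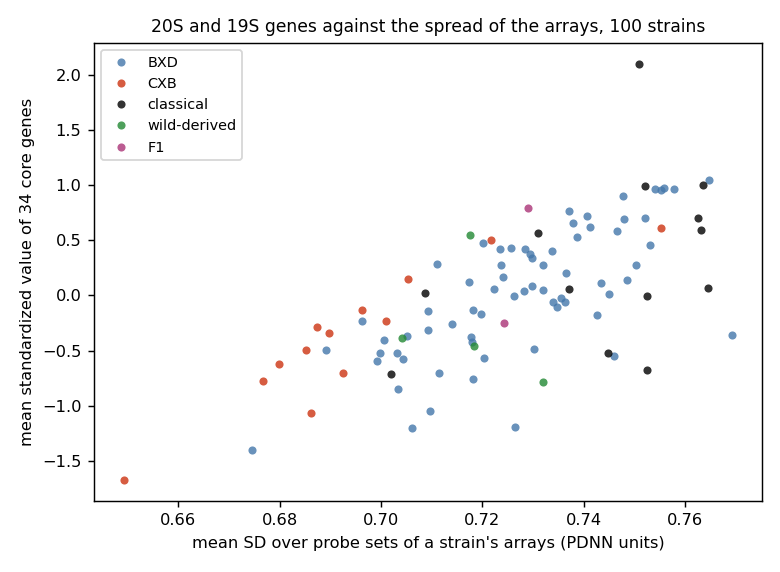
Mean standardized strain value of the 34 core and cap genes (y axis, in SDs over strains) against the SD of all PDNN values on a strain's arrays (x axis, PDNN units), 1 point per strain, coloured by panel. Strains whose arrays had a wider spread had higher means (r = 0.68, n = 100), CXB8 lying lowest and AKR/J highest.

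The genes outside the list most like this mean were Sdf2 (r = 0.90), Ndufb3 (0.90), Mrps22 (0.88), Chmp2a (0.87), Slirp (0.87), Ndufa9 (0.87), Emg1 (0.87), Snrpg (0.87), Ndufa2 (0.87) and Polr2g (0.87), over 100 strains. After quantile normalization their r ranged from 0.65 (Polr2g) to 0.84 (Sdf2). The least alike were Adam4 (-0.82), Clcn5 (-0.78), Prp2 (-0.76), Adamts9 (-0.76) and Treml1 (-0.75), which came to -0.42 (Adam4) to -0.25 (Treml1, Prp2). Their means were 7.79 (Treml1) to 8.06 (Clcn5) PDNN units, near the median of 7.87 over all probe sets. Of the cell type lists, the mean of 4 interneuron markers had an r of 0.57 with the core mean, 4 pyramidal markers 0.55, 4 astrocyte markers 0.55 and 2 erythroid markers -0.41. After quantile normalization these were 0.20, 0.08, 0.19 and -0.02, while 4 pan-neuronal markers stood at -0.56 (0.13 before). The highest then were 4 choroid plexus markers (0.28, 0.19 before) and 4 oligodendrocyte markers (0.24, 0.28 before). The erythroid markers had medians of 7.83 (Hba-a1) and 7.87 (Alas2) PDNN units over strains, also near the median over all probe sets. The part of cell type proportions was not tested, and in bulk tissue fewer cells of a type and less RNA per cell cannot be told apart.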

How the data were processed

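Hippocampal RNA was hybridized to arrays, and the authors deposited PDNN, RMA and MAS5 values as scores per probe set. PDNN scores were used as deposited, log-like and of unstated base. No source used here names the authors' software. Arrays have no counting depth, and their number limits the precision. The labels gave strain, sex, age, pool and batch. The technical duplicate was averaged and the pool of both sexes left out, leaving 199 columns. Strain, sex and batch (7 batches) were terms of 1 linear model for all 45037 probe sets, fitted with limma 3.58.1 and the package data.table (version 1.17.8) in R 4.3.3, with 92 residual degrees of freedom and a median residual SD of 0.0782. For wild-derived against classical strains, a further limma fit took 1 value per strain. Tests were two-sided, and Benjamini-Hochberg adjustment ran over all probe sets, with a threshold of 0.05. The fits were tested on 7 simulated data sets with 200 changed probe sets each, the other probe sets carrying only array noise. Correlations used strain values of each gene's brightest probe set. Named genes were all members called, those with the 3 highest and 3 lowest median correlations, and those with disagreeing probe sets. The members and lists were chosen with earlier results of these data known. Alternatives were RMA and MAS5 values, no batch term, quantile normalization, age, a filter that kept means of at least 8, and leaving out outlier arrays (RMA outlier share of 0.1 or more), older pools (over 100 days), arrays or strains. Alternatives chosen after seeing the data were panels alone, no BXD63, no arrays with disagreeing headers, and weighted strains.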

Additional observations from a re-analysis of the deposited data

How the results depend on the processing

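Of the calls, those of Psmb6 held under all 31 BXD and 14 parental alternatives, and that of Psmd6 under all 31 BXD alternatives and all parental ones but RMA values. No named result changed sign. With arrays of the panel alone, 9 members passed across the BXD (3773 of all probe sets) and 0 across the CXB (492). The CXB count was 2 with RMA values, with or without mismatched columns, 0 with a mean of 8 or more, and 0 to 1 leaving out each strain. Between the parents it was 6 with a mean of 8 or more, 4 without a batch term (1480 of all), which lost the calls of Psmd11, Psmd9 and Psme3, 4 with the spread of inbred strains and F1 hybrids alone (880), and 4 to 11 leaving out each array. RMA values gave 5, but the RMA columns headed C57BL/6J correlated best with BALB/cJ, so this setting compares other strains, and without them no value could be had. Among RMA calls 832 of 2016 were higher in DBA/2J, against 2072 of 3259. The wild-derived count was 0 with RMA (both forms) and MAS5 values, and 0 (without PWD/PhJ, 245 of all) to 8 (without WSB/EiJ, 3308 of all) leaving out each strain. Over all probe sets it was 1034 with weighted strains (411 higher, against 878 of 1777) and 634 without outlier arrays. Of MAS5 calls, 193 of 764 were higher. The BXD count was 4 with each of 20 arrays left out. Without arrays with disagreeing headers the wild-derived count was 3 (2078 of all). The median correlation of members stayed between 0.19 (MAS5) and 0.41 (Spearman). No paired analysis was possible because replicate numbers were given in accession order and pair no samples. Signal over background was not used here.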
